A study of Homo sapiens with 2 samples.

Results

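FOS, FOSB, FOSL1, JUN, JUNB, JUND, ATF3, EGR1, IER3 and MYC were examined as the AP-1 and immediate early genes of TFK1 cells, an established human cholangiocarcinoma (CCA) cell line. They were chosen with earlier results of these data known and found by gene symbol, with 1 row kept per symbol. They make up 10 of the 56638 genes in the deposited tables. All 10 passed the filter of at least 10 counts summed over both libraries, as did 17545 genes in all, which are called the genes tested below. The study sequenced RNA from untreated TFK1 cells labelled as knockdown of MBD2 (shMBD2) and from untreated TFK1 cells labelled as negative control (shNC), to find the factors that MBD2 regulates in CCA cells. MBD2 is a reader of DNA methylation that binds methylated CpG dinucleotides. The paper describes delivery of short hairpin RNAs (shRNAs) by lentivirus, followed by drug selection of positive cells. Both libraries came from TFK1 cells, so the comparison rests on 1 cell line. The labels do not say which of the MBD2 shRNAs of the study was used.

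The AP-1 transcription factor is a dimer of basic leucine zipper proteins. Proteins of the JUN family pair with each other or with proteins of the FOS and ATF families, and FOS proteins bind DNA only with such a partner. Immediate early genes are transcribed within minutes of a growth factor, cytokine or stress signal, without prior protein synthesis, and their mRNAs are often short-lived because of AU-rich elements in the 3' untranslated region (UTR). In epithelial tumors AP-1 is a common endpoint of RAS, ERK and JNK signaling, and MYC links the same signals to cell growth.

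The libraries held 14728814 counts (shMBD2) and 14467406 counts (shNC). MBD2, the targeted gene, had 365 counts in shMBD2 and 1013 in shNC, or 15.6 and 44.6 TPM, the transcript abundance scaled for length and library size. Its log2 fold change (log2FC) of shMBD2 over shNC was -1.48, with a 95% interval from -1.66 to -1.31, in the direction of the label. Here and below, log2FC was computed from counts scaled by the trimmed mean of M values (TMM) with a prior of 0.5 counts. Its interval is an exact Clopper-Pearson interval, computed from how the reads of a gene divide over both libraries, and covers counting error only. Each condition had 1 library, so no difference has a replicate check and no p-value is given. A gene was called, and is said to have risen or fallen, at a log2FC above 1 or below -1. Of the 10 biliary and epithelial markers looked at, KRT8, KRT18 and KRT7 were abundant and KRT19 had 119 and 70 counts. The summed level of these markers was 4846 TPM in shMBD2 and 6053 TPM in shNC. Of 7 fibroblast markers, 3 had at most 3 counts in both libraries, and the 7 summed to 9.11 and 4.29 TPM, mainly through COL1A1 (308 and 124 counts). The 7 leukocyte markers summed to 14.2 and 12.4 TPM, almost all from CD14 (152 and 126 counts), with the other 6 at most at 3 counts in both libraries. Hepatocyte markers summed to 0.865 and 0.464 TPM, and endothelial markers to 0 and 0.0436 TPM. The part of these marker differences in the results below was not tested.

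FOSL1 and EGR1 rose in shMBD2, to 2.44-fold and 2.15-fold of shNC after scaling, and FOSB, the scarcest of the 10 genes, fell to 0.389-fold. JUN, IER3 and FOS had levels 1.59-fold to 1.66-fold those of shNC, and MYC 1.29-fold, with intervals that lay above 0. JUNB was at 1.03-fold and JUND at 0.983-fold of shNC. The median log2FC of the 10 genes was 0.52, against -0.0082 over all 17545 genes tested, and 7 of the 10 had a log2FC above 0, as did 48.9% of all genes tested. The 2 genes above 1 stood against a background of 5.48% of all genes tested (961 genes), and the 1 gene below -1 against 5.07% (890 genes). An interval wholly above 0 was found for 6 of the 10 genes, against 19.7% of all genes tested. An interval wholly below 0 was found for 0 of the 10 genes, against 18.4% of all. Because the 10 genes were chosen with earlier results of these data known, these counts and the median are no independent evidence of a direction. When genes whose larger count was under 100 were left out, 7 of the 10 remained. Of these 7, 1 was above 1 (1.62% of 10917 such genes) and 5 had an interval above 0 (25.4%). FOS, among these 5, reached 100 counts only in shMBD2 (143 counts, and 89 in shNC). Its place in this count was thus partly set by the filter. The plot of log2FC by gene orders the 10 genes beside FOSL2 and MBD2. In RNA from bulk cells, fewer cells that express a gene and less RNA per cell cannot be told apart.

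**Figure D1:**
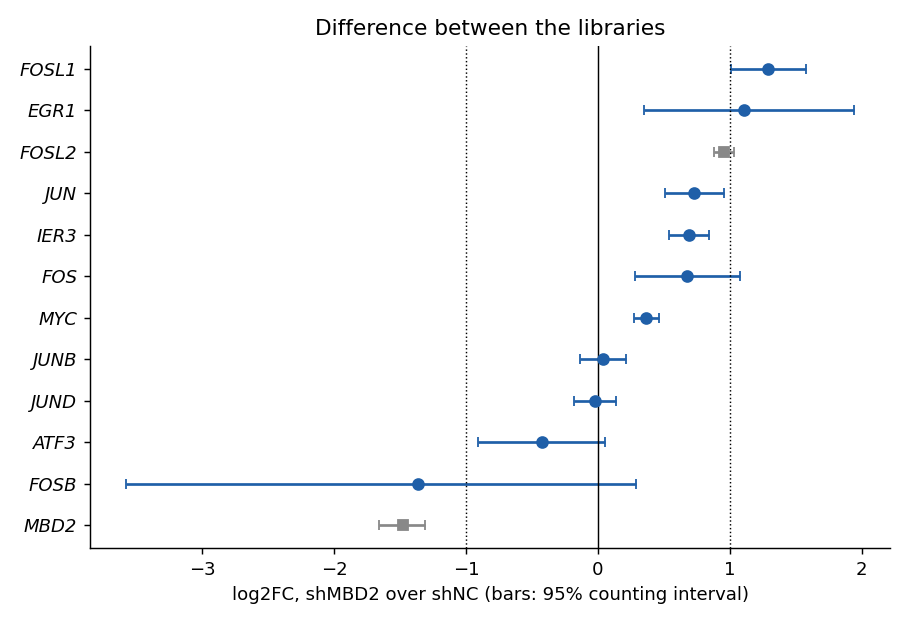
Log2FC of shMBD2 over shNC (x axis) for the 10 genes (blue circles) and for FOSL2 and MBD2 (grey squares), 1 library per condition, with bars for the 95% counting interval and dotted lines at the call limits of 1 and -1. FOSL1 at 1.29 was the single one of the 10 whose interval lay above 1, and the interval of FOSB spanned from -3.57 to 0.29.

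The 10 genes covered a wide range of expression. In shNC the order by TPM, which is per transcript length, was MYC (123), IER3 (76.6), JUND (64.0), JUNB (53.1), FOSL1 (15.5), JUN (14.5), ATF3 (7.46), FOS (7.40), EGR1 (1.20) and FOSB (0.523). The exact Poisson intervals of neighbors in this order overlapped for FOSL1 and JUN, for ATF3 and FOS, and for EGR1 and FOSB. Overlap of separate intervals does not test the ratio of a pair, so it does not decide whether these pairs differ. In shMBD2 the order of the first 6 genes was the same, but FOSL1 and JUN were separated, at 37.1 TPM (33.3 to 41.2) and 23.6 TPM (21.5 to 25.9). FOS was also separated from ATF3, at 11.6 TPM (9.77 to 13.7) against 5.45 TPM (4.22 to 6.94). JUND and JUNB, which did not overlap in shNC (59.2 to 69.0 and 48.7 to 57.8 TPM), overlapped in shMBD2 (57.1 to 66.6 and 49.0 to 58.0 TPM). Such overlap does not show equal levels, as the ratio of JUND to JUNB was not tested.

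**Figure D2:**
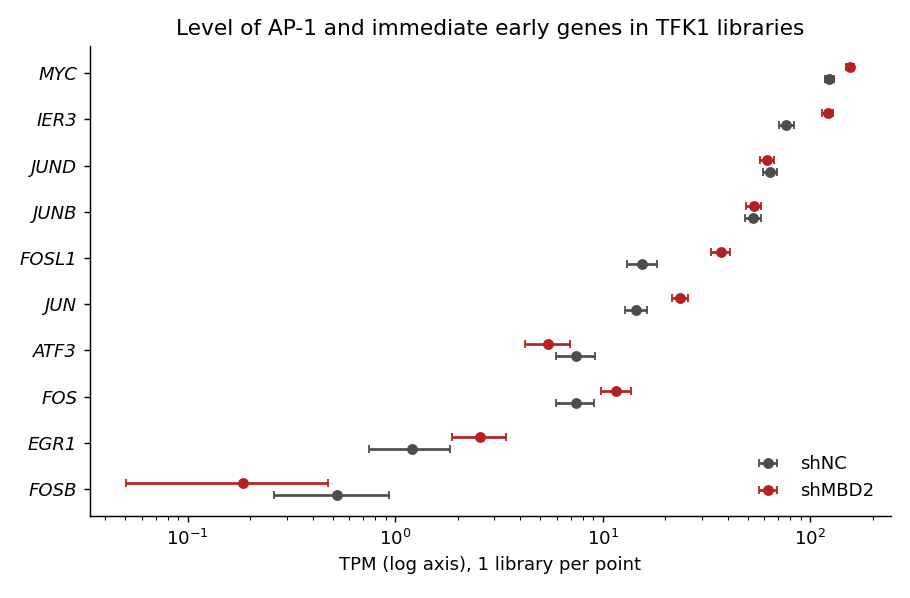
Level in TPM (x axis, log scale) of the 10 genes in shNC (grey) and shMBD2 (red), 1 library per point, with bars for the exact 95% Poisson interval of the count. The libraries were apart for MYC, IER3, FOSL1, JUN, FOS and EGR1, and overlapped for JUND, JUNB, ATF3 and FOSB.

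JUN (chromosome 1, 58780788 to 58784327, minus strand, GRCh38), a gene of 1 exon, encodes the c-Jun protein, whose activation domain is phosphorylated by JNK. It had 448 counts in shMBD2 and 268 in shNC, with a log2FC of 0.73 (0.51 to 0.96). Its level was 23.6 TPM in shMBD2 and 14.5 TPM in shNC, and these intervals did not overlap. JUNB (chromosome 19, 12791496 to 12793315, plus strand, GRCh38) encodes a Jun protein that activates transcription more weakly than c-Jun at many sites. It had 554 counts in shMBD2 and 537 in shNC, or 53.4 and 53.1 TPM, with a log2FC of 0.036 (-0.14 to 0.21). JUND (chromosome 19, 18279760 to 18281622, minus strand, GRCh38), the Jun gene that is expressed most constantly in many cell types, had 660 counts in shMBD2 and 667 in shNC. Its level was 61.7 and 64.0 TPM and its log2FC was -0.024 (-0.18 to 0.13). A difference between the libraries was thus seen for JUN and was within counting error for JUNB and JUND.

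FOS (chromosome 14, 75278774 to 75282230, plus strand, GRCh38) encodes c-Fos, the classic immediate early partner of c-Jun. It had 143 counts in shMBD2 and 89 in shNC, or 11.6 and 7.40 TPM. Its log2FC was 0.67 (0.28 to 1.07), which placed it 1661st from the highest of 17545 genes. FOSB (chromosome 19, 45467995 to 45475179, plus strand, GRCh38), an immediate early gene known from neurons, was close to the detection limit, with 4 counts in shMBD2 and 11 in shNC. Its level was 0.185 TPM (0.0505 to 0.474) in shMBD2 and 0.523 TPM (0.261 to 0.936) in shNC. Its log2FC of -1.36 passed the call, but the interval from -3.57 to 0.29 included 0, and on the scale of log2(TPM + 1) its difference was -0.36. FOSB overlaps ERCC1 on the opposite strand, which had 944 and 876 counts and a log2FC of 0.099. The sources used here do not state whether counting used strand, so reads of this overlap could have come from either gene.

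FOSL1 (chromosome 11, 65892049 to 65900573, minus strand, GRCh38) encodes FRA-1, a FOS family protein that is stabilized by ERK and is often abundant in invasive carcinoma cells. It had 354 counts in shMBD2 and 144 in shNC, or 37.1 TPM (33.3 to 41.2) and 15.5 TPM (13.1 to 18.2). The levels did not overlap, and the log2FC of 1.29 (1.01 to 1.58) was the largest of the 10 genes, 639th from the highest of 17545. CCDC85B, which lies 415 bases from FOSL1 on the opposite strand, had 307 counts in shMBD2 and 236 in shNC, with a log2FC of 0.37 (0.12 to 0.62). The neighbor on the other side, C11orf68, had a log2FC of 0.10 (-0.18 to 0.39). FOSL2, which encodes FRA-2 and is the FOS family gene that is not among the 10, had 4406 counts in shMBD2 and 2256 in shNC, or 115 and 60.3 TPM. Its log2FC of 0.96 (0.88 to 1.03) lay just under the call limit.

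Added up, the FOS family held 164 TPM in shMBD2 and 83.8 TPM in shNC, and the JUN family 139 and 132 TPM. From summed counts, the log2FC was 0.96 (0.89 to 1.03) for the FOS family (4907 and 2500 counts) and 0.17 (0.064 to 0.27) for the JUN family (1662 and 1472 counts). FOSL2 made up 89.8% of the FOS family counts in shMBD2 and 90.2% in shNC. The FOS family value is therefore mainly that of FOSL2 (log2FC 0.96). The ratio of FOS family to JUN family TPM was 1.18 in shMBD2 and 0.637 in shNC. FOSL2 supplied most of the FOS family mRNA in both libraries, at 70.2% of the summed TPM in shMBD2 and 72.1% in shNC, and FOSL1 supplied 22.7% and 18.5%. The share of FOS was 7.08% and 8.84%, and that of FOSB 0.113% and 0.624%. Within the JUN family, JUN supplied 17.0% of the summed TPM in shMBD2 and 11.0% in shNC, JUNB 38.5% and 40.4%, and JUND 44.5% and 48.6%. By counts, the share of JUN was 27.0% (24.8 to 29.2, exact binomial interval) in shMBD2 and 18.2% (16.3 to 20.3) in shNC, so its intervals did not overlap. The share of FOSL1 by counts was 7.21% (6.51 to 7.97) and 5.76% (4.88 to 6.75), with overlapping intervals. Such overlap does not show equal shares, and the difference of the FOSL1 shares was not tested. These are mRNA levels, and protein levels and dimer composition were not measured here.

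**Figure D3:**
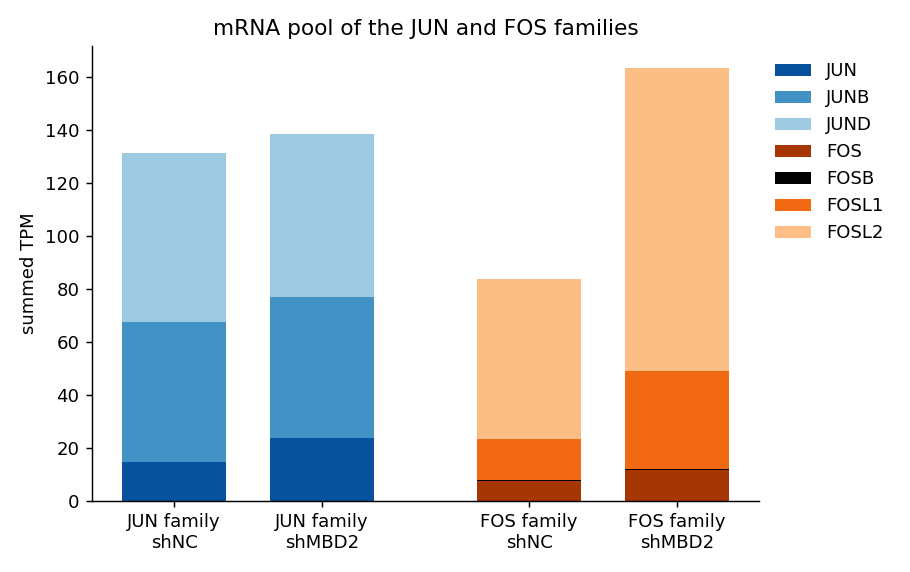
Summed TPM (y axis) of the JUN family (blue) and the FOS family (orange and brown, FOSB as a thin black band) in shNC and shMBD2, 1 library per bar, stacked by gene. The FOS family bar is 83.8 TPM in shNC and 164 TPM in shMBD2, mainly through FOSL2, while the JUN family bars are 132 and 139 TPM.

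ATF3 (chromosome 1, 212565334 to 212620777, plus strand, GRCh38) encodes a basic leucine zipper factor of the stress response that can dimerize with Jun proteins. It had 66 counts in shMBD2 and 88 in shNC, or 5.45 and 7.46 TPM. The log2FC was -0.42 (-0.91 to 0.053), an interval that included 0. EGR1 (chromosome 5, 138465490 to 138469315, plus strand, GRCh38) encodes a zinc finger factor induced through the serum response factor and its ETS partners. It had 46 counts in shMBD2 and 21 in shNC, or 2.56 TPM (1.88 to 3.42) and 1.20 TPM (0.743 to 1.84). The log2FC of 1.10 (0.35 to 1.94) passed the call, and on the scale of log2(TPM + 1) the difference was 0.70, under it. RPL7P19, a pseudogene 4429 bases from EGR1 on the same strand, had 50 and 25 counts, a log2FC of 0.98 (0.27 to 1.75). Reads of a ribosomal protein pseudogene can come from its parent gene.

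The promoters of EGR1, FOS and JUND are shown because EGR1 rose, FOS had an interval above 0 and JUND an interval around 0. Within this window, each also holds a match to a different one of the elements searched. They are the 250 bases before the RefSeq transcript start (GRCh38.p14), at chr5:138465229-138465478 (plus strand), chr14:75278578-75278827 (plus strand) and chr19:18281623-18281872 (minus strand). Capitals mark serum response elements in EGR1, a TATA box (TATAAA) in FOS and a cyclic AMP response element (TGACGTCA) in JUND.
EGR1: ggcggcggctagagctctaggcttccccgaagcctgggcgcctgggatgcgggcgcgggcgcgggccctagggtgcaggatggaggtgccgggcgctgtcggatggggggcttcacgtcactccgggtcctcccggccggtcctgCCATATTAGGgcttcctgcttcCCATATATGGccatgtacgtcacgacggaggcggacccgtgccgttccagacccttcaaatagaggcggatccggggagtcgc
FOS: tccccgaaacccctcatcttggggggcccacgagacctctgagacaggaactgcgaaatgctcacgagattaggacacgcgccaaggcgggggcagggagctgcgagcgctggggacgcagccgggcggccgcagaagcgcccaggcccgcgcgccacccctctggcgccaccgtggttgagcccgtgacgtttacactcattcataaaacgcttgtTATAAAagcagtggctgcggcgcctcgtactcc
JUND: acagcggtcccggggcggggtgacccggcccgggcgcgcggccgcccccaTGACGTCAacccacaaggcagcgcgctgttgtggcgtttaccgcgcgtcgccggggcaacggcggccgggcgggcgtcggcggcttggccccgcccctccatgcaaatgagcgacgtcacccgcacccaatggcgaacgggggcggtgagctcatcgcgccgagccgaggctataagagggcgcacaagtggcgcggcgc

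The EGR1 promoter held CCATATTAGG 105 bases and CCATATATGG 83 bases before the start. A match to the serum response element was found in 1.16% of 35116 RefSeq promoters of this length, searched on both strands. TATAAA was found 33 bases before the start of FOS, 30 before FOSB and 31 before JUNB, and 230 before the second of the ATF3 starts, against 10.7% of all promoters. TGACGTCA was found 200 bases before the start of JUND, against 1.65% of all promoters. None of the promoters of FOS, FOSB, JUN, JUNB, JUND, ATF3 and EGR1 held the AP-1 site TGANTCA (6.57% of all promoters), the E-box CACGTG (6.34%) or a match to the NF-kB element (5.21%), which says only that these letters are not in this window. The same holds for promoters without a match to the serum response element, TATAAA or TGACGTCA. Other forms of these elements and bases further away were not searched. CpG dinucleotides, the site of DNA methylation, numbered 40 in the JUND promoter, more than in 97.8% of promoters, 27 in JUNB, 25 in both FOS and EGR1, 19 in FOSB and 14 in JUN. The ATF3 starts had 4 and 0, and the median of all promoters was 11 (quartiles 3 and 23). Methylation was not measured in these samples.

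IER3 (chromosome 6, 30743199 to 30744554, minus strand, GRCh38) encodes a short-lived protein induced by growth factors and inflammatory cytokines that modulates apoptosis and ERK signaling. It had 937 counts in shMBD2 and 576 in shNC. Its level was 121 TPM (114 to 129) in shMBD2 and 76.6 TPM (70.4 to 83.1) in shNC, and the log2FC was 0.69 (0.54 to 0.85). The levels did not overlap. IER3 lies in the major histocompatibility complex and stood on 6 rows of the tables with the same values, of which 1 was kept. FLOT1, 466 bases away on the same strand, had 1378 and 1658 counts and a log2FC of -0.28 (-0.38 to -0.17), the opposite direction.

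AU-rich elements in the 3' UTR are shown for FOS, IER3 and FOSL1, because FOS and IER3 were the densest of the 9 genes looked at and FOSL1 had the largest log2FC. The windows of 30 bases come from the principal transcripts of GENCODE 29 (GRCh38), at bases 633 to 662 of the FOS 3' UTR, 259 to 288 of IER3 and 585 to 614 of FOSL1, and capitals mark the pentamer ATTTA.
FOS: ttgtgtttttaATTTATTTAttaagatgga
IER3: taattaatATTTAtatgtATTTAtgtacgt
FOSL1: gagggcagctgctATTTAttttcctaaaga

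IER3 held 6 copies of ATTTA in 737 bases of 3' UTR, or 8.14 per kb, a density above that of 97.7% of 17974 human 3' UTRs. FOS held 5 copies in 806 bases, or 6.20 per kb (above 94.4%), and the overlapping form ATTTATTTA once, which 6.73% of 3' UTRs hold. JUNB had 4 per kb (above 83.8%), ATF3 2.45, JUN 2.33, FOSL1 1.50, JUND 1.47, FOSB 1.39 and EGR1 0.81 per kb, beside a median of 1.55 per kb over all 3' UTRs. The genes with an interval above 0 included 3' UTRs of high density (IER3, FOS), above the median (JUN), near it (FOSL1) and below it (EGR1). JUNB, the third in density, had a log2FC of 0.036. A link of this density to the differences between the libraries was not tested. For the shRNA listed as the first of the study's MBD2 shRNAs, the site of guide bases 2 to 8 (TACGTAA) was found in the 3' UTR of 1 of the 9 genes looked at, IER3, and in 1.97% of all 3' UTRs.

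JUNB overlaps HOOK2 on the opposite strand, which had 198 and 185 counts and a log2FC of 0.089 (-0.21 to 0.39). The annotated neighbors of FOS, JUN and ATF3 had at most 9 counts in either library, and KIAA1683 beside JUND had 37 and 38 counts. Beside FOSB, CD3EAP had a log2FC of -0.12 (-0.55 to 0.31) and RTN2 of -0.71 (-1.24 to -0.20), with 52 counts in shMBD2 and 85 in shNC.

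MYC, a basic helix-loop-helix leucine zipper factor that drives ribosome production and growth metabolism, was the most abundant of the 10 genes. The tables place it on chromosome 8, from 128747680 to 128753674 on the plus strand, in a build they do not name. It had 2090 counts in shMBD2 and 1612 in shNC, or 156 TPM (149 to 163) and 123 TPM (117 to 130). The levels did not overlap, and the log2FC was 0.37 (0.27 to 0.46), 2988th from the highest of 17545 genes. PVT1, a long noncoding RNA gene 53105 bases away on the same strand, had 394 and 324 counts and a log2FC of 0.27 (0.058 to 0.49). CASC11, on the other side, had 6 and 4 counts.

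Of the 14 other AP-1 family genes, 10 passed the filter, with a median log2FC of 0.083, and 0 were called in either direction. FOSL2 was the highest of them, and MAFG, a small MAF protein that pairs with NRF2, had 1373 and 1198 counts and a log2FC of 0.19. An interval above 0 was found for 3 and below 0 for 3, beside 19.7% and 18.4% of all genes tested. The other immediate early genes comprised 38 genes, 33 of which passed the filter. Their median log2FC was -0.014, with 0 genes above 1 and 1 below -1, 12 with an interval above 0 and 9 below. Calls above 1 made up 5.48% of all genes tested and calls below -1 made up 5.07%. In lists this short, few or 0 calls are near these shares. GADD45B, a gene of the stress response, fell from 392 counts in shNC to 155 in shMBD2, a log2FC of -1.34 (-1.63 to -1.08). The most counted were MCL1, an inhibitor of apoptosis (3434 and 2972 counts, log2FC 0.20), and PLK2, a polo-like kinase (3170 and 1801 counts, log2FC 0.81). Several classic immediate early genes, named after their values were seen, had log2FC near 0, among them DUSP1 (-0.059), NR4A1 (-0.0088) and ZFP36 (-0.014), while PHLDA1 reached 0.89, TRIB1 0.81 and CYR61 -0.77.

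The genes that feed back on or report ERK signaling had a median log2FC of 0.036 over 16 genes, with 5 intervals above 0 and 0 below. Over all genes tested, 19.7% had an interval above 0 and 18.4% below. DUSP6, the cytoplasmic phosphatase of ERK, rose from 85 counts in shNC to 219 in shMBD2, a log2FC of 1.35 (0.99 to 1.74). CCND1, the cyclin of G1 progression, had 3771 and 3256 counts (log2FC 0.20), and DUSP4, a nuclear phosphatase of MAP kinases, had 3648 and 3523 counts (0.041). The 26 kinases and factors that act upstream of immediate early genes had a median of 0.11 with 0 genes called, 10 intervals above 0 and 7 below. Calls above 1 made up 5.48% of all genes tested and calls below -1 made up 5.07%. The 0 calls among these 26 genes, and DUSP6 alone in the ERK list, are near these shares. The most counted was RPS6KA3, which encodes the ERK-activated kinase RSK2 (3758 and 4602 counts, log2FC -0.30). The highest of the list, named after their values were seen, were MAP2K2 (1426 and 725 counts), which encodes the ERK kinase MEK2, and MAP3K8 (1032 and 524 counts), a kinase upstream of MEK, both with a log2FC of 0.97. SRF, the serum response factor, also named after its values were seen, had 498 and 413 counts and a log2FC of 0.26 (0.070 to 0.45).

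Among 22 genes known to carry AP-1 sites, 17 passed the filter, with a median log2FC of 0.51, and 6 of the 17 rose while 0 fell. Over all genes tested, 5.48% were above 1 and 5.07% below -1. An interval above 0 was found for 13 of the 17 and below 0 for 1, beside 19.7% and 18.4% of all genes tested. IL8, a neutrophil chemokine, had 3052 counts in shMBD2 and 27 in shNC, a log2FC of 6.79 (6.27 to 7.42). CCL2, a monocyte chemokine, had 1180 and 35 counts (5.05), TNC, the matrix protein tenascin C, 146 and 23 counts (2.63), and PLAU, urokinase, 1127 and 421 counts (1.41). The other 2, named after their values were seen, were EREG, an EGF receptor ligand (1541 and 705 counts, 1.12), and IL6, with 39 counts in shMBD2 and 0 in shNC, at least 12.9-fold higher against a floor of 3 counts per library (lower limit of the counting interval of its log2FC 3.32). The median was the same with IL6 at this bound. CD44, a hyaluronan receptor (8330 and 5767 counts, 0.52), was the most counted and passed no call. The metalloproteinase genes MMP1, MMP3, MMP9, MMP10 and MMP13 had at most 6 counts in either library and did not pass the filter. IL8, IL6 and CCL2 also carry NF-kB sites, and the list was written with earlier results of these data known, so its count is no independent evidence of a direction.

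The partners and antagonists of MYC had a median log2FC of -0.024 over 11 of 12 genes, with 0 above 1, 2 intervals above 0 and 4 below. The 1 gene below -1 was MYCL, named after its values were seen, with 8 counts in shMBD2 and 37 in shNC (log2FC -2.15, -3.53 to -1.09). MAX, the obligate partner of MYC, also named after its values were seen, had 498 and 391 counts and the highest log2FC of the list, 0.34 (0.15 to 0.53). The most counted were MLXIP (1379 and 1531 counts, log2FC -0.16) and MGA (1206 and 1214 counts, -0.018). Of 28 genes activated by MYC, 27 passed the filter, and 0 were called in either direction. Their median log2FC was 0.34, 25 of the 27 had a log2FC above 0 (48.9% of all genes tested), and 21 had an interval above 0 and 0 below. Calls above 1 made up 5.48% of all genes tested and calls below -1 made up 5.07%. The counts of calls in both MYC lists are near these shares. Over all genes tested, 19.7% had an interval above 0 and 18.4% below. Of genes with at least 100 counts in the higher library, 25.4% had an interval above 0. With high counts, an interval can exclude 0 at a small log2FC. The list of genes activated by MYC was also written with earlier results of these data known, so its counts are no independent evidence of a direction. LDHA, lactate dehydrogenase A (30673 and 28373 counts, log2FC 0.10), and NPM1, nucleophosmin (20848 and 18781 counts, 0.14), were the most counted. The range ran from -0.094 for EIF4E, the cap-binding factor, to 0.82 for NME1, a nucleoside diphosphate kinase, both named after their values were seen. The plot of gene lists shows these ranges side by side.

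**Figure D4:**
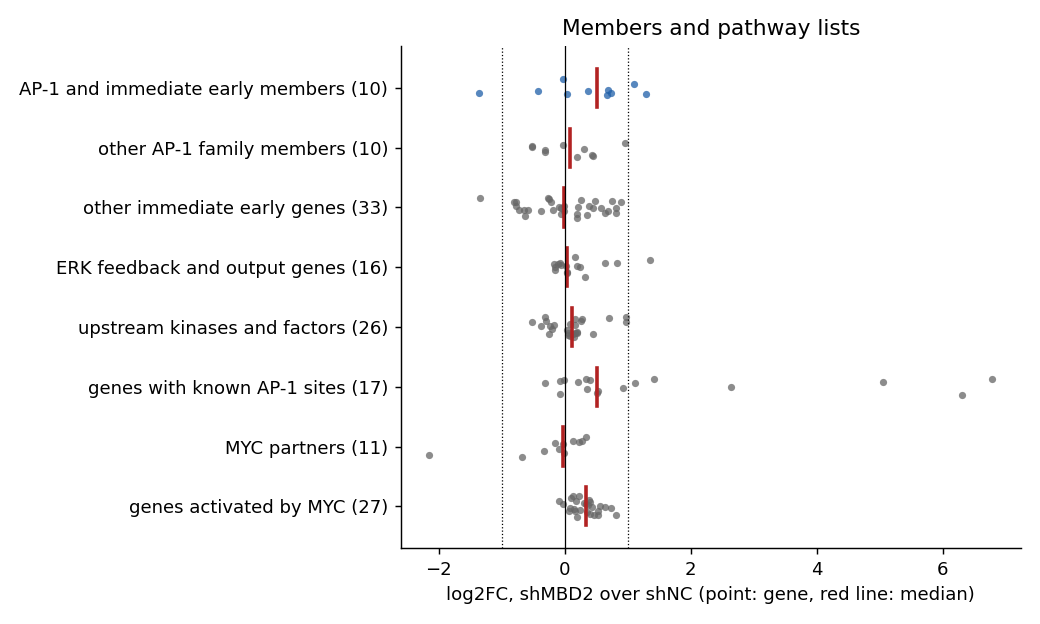
Log2FC of shMBD2 over shNC (x axis) for each gene (point) of the 10 AP-1 and immediate early genes (blue) and of 7 gene lists (grey), with the number of tested genes in brackets, a red line at each median and dotted lines at 1 and -1. The points of IL8, IL6 and CCL2 lie beyond 5, where IL6 is drawn at its fitted value although shNC has 0 counts, and the genes activated by MYC lie between -0.094 and 0.82.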

How the data were processed

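RNA from TFK1 cells with knockdown of MBD2 or negative control was sequenced, with 1 library per condition. The authors deposited a table of raw read counts for each gene and a table of TPM for each gene. The submitters' processing notes name fastp, HISAT2 2.1.0, featureCounts, DESeq 1.18.1 and GRCh38.p13. The strandedness of counting is not given in the sources used here. The tables' coordinates name no build and differ from GENCODE 29 (GRCh38), from which the printed gene coordinates and 3' UTRs were taken. Of 63723 lines, 46 without an identifier were dropped. The remaining 63677 rows repeat values for a symbol with several identifiers, so repeats were removed, leaving 56638 genes whose deposited TPM summed to 1000000 in each library. There was no column of another sample.

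Counts were scaled by TMM (edgeR 4.0.16, R 4.3.3), and log2FC took a prior of 0.5 counts. The genes tested are those whose counts in both libraries together reached 10. For intervals (95%), exact Clopper-Pearson or Poisson limits were computed with scipy 1.17.1. They cover counting error only, and reads without molecular identifiers are not independent molecules. No significance test was made, because 1 library per group leaves no residual degrees of freedom. Calls are log2FC above 1 or below -1, and the scripts were tested on simulated data. Alternatives were DESeq2 1.42.0 size factors, total counts, upper-quartile factors, log2 of TPM plus 0.1 or 1, priors of 2 and 0.1, and filters of at least 1 or 100 counts.

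The 10 genes and all lists were chosen with earlier results of these data known. Genes named are the 10, MBD2, their genomic neighbors and, of each list, up to 4 genes called in each direction with at least 100 counts in the higher library and the 2 with the most counts. Others are named as chosen after their values were seen, and a few genes that the rule would name are not reported here. Promoters, from RefSeq (GRCh38.p14), were matched by symbol for 7 of the 10 genes (FOS, FOSB, JUN, JUNB, JUND, ATF3 and EGR1), and 3' UTRs for 9.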

Additional observations from a re-analysis of the deposited data

How the results depend on the processing

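The log2FC of each of the 10 genes and of MBD2 kept its sign under the 7 alternatives of scaling, unit and prior, and the scalings moved all genes by at most 0.017 on the log2 scale. With log2 of TPM plus 1, FOSL1 alone was above 1 (1 of the 10 genes) and 0 were below -1, as low levels are pulled toward 0. EGR1 ranged from 0.70 to 1.12 and FOSB from -1.45 to -0.36, while FOSL1 stayed between 1.21 and 1.29. The counts over all genes depended on low values, with 374 above 1 and 340 below -1 with log2 of TPM plus 1, 4523 and 4303 with at least 1 count, and 213 and 127 with at least 100 counts. With at least 1 count, the other AP-1 family genes had a median of 0.31 and 1 gene above 1, the other immediate early genes had 3 above 1, and the genes with AP-1 sites and those activated by MYC each had 1 below -1. With at least 100 counts, 0 MYC partners were below -1. In each of these, the genes that entered or left were those with few counts. The other 221 comparisons, of counts, medians and the log2FC of MBD2, stayed within their limits. The shares of the JUN and FOS family genes, 12 of which moved beyond their counting interval, depend on counts in place of TPM, since the genes differ in length. No paired analysis was possible because there was 1 library per group, and no library could be left out for the same reason. TMM-scaled counts per kilobase were not run, since the files hold no gene length. Depth limits FOSB and EGR1 most, with 4 to 46 counts.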
